A study of Mus musculus with 9 samples.

Results

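The CCN genes and the YAP pathway were followed through 9 genes of the Hippo and YAP signaling circuit, namely Ctgf, Cyr61, Ankrd1, Amotl2, Lats2, Yap1, Wwtr1, Tead1 and Ajuba, taken by name from the 54532 gene IDs of the RNA-seq data. These 9 genes were selected on results of these same libraries, with their FPKM and fold changes between the 3 groups in view, so their values are a description and carry no test. All 9 had a mean of at least 0.5 FPKM (fragments per kilobase of gene, scaled to library depth), the level above which 13245 genes were tested. The cells were HT22, an immortalized mouse hippocampal line of WT genotype that the study uses as a neuronal model, sequenced as 3 libraries in each of 3 groups. OGE cells went through 2 h of oxygen-glucose deprivation (OGD) and were then re-oxygenated for 24 h with hiPS-MSC-EVs, which are extracellular vesicles of mesenchymal stem cells made from human induced pluripotent stem cells. OGP cells had the same 2 h of OGD and 24 h of reoxygenation with PBS, and control cells were left untreated. The study asked how the vesicles act on cells that have gone without oxygen and glucose. The sample labels give the standard medium, with serum, after OGD, whereas the study's methods list medium with exosome-free serum, without serum or with EVs, so any difference in serum between OGE and OGP cells and the EVs themselves cannot be told apart.

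In the Hippo pathway, a chain of kinases ends in LATS kinases, which phosphorylate the coactivators YAP and TAZ (gene Wwtr1) and keep them out of the nucleus. When the kinases are quiet, as in spread, stretched or growing cells, YAP and TAZ enter the nucleus, bind TEAD proteins on DNA and switch on genes such as Ctgf, Cyr61 and Ankrd1. The CCN genes, named after Cyr61, Ctgf and Nov, encode secreted proteins of the extracellular matrix that bind integrins and act on adhesion, migration and wound repair.

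TEAD proteins bind DNA at GGAATG, read on either strand (CATTCC on the other), and the windows around the start sites of the 9 genes were searched for these letters. RefSeq windows of GRCm38.p6, each 250 bases before to 50 bases after a start site, were found for 7 of the 9 genes. They gave 9 windows, since Lats2 and Wwtr1 had a pair each, and Ctgf and Tead1 are named only. The letters were present in 8 of the 9 windows and in at least 1 window of each of the 7 genes, against 14.7% of all 32851 mouse windows (4817). The Wwtr1 windows start 34 bases apart and hold the same single match, which is thus counted in both. The AP-1 motif TGANTCA and the CArG box bound by SRF were in none of the 9 windows, against 7.81% and 1.63% of all windows, and both were searched on both strands. At such shares an absence from 9 windows is likely for any genes, and nothing is read from it. The genes include textbook YAP targets, and a match is a run of letters and not a shown binding site. The bases before the start site of Cyr61 (chr3:145649986-145650235, minus strand) and Ankrd1 (chr19:36119845-36120094, minus strand) are shown because these are the secreted and the nuclear target with the clearest differences between groups among the genes with a window. All are 5′ to 3′ on the strand of the gene, with the TEAD letters in capitals.
Cyr61: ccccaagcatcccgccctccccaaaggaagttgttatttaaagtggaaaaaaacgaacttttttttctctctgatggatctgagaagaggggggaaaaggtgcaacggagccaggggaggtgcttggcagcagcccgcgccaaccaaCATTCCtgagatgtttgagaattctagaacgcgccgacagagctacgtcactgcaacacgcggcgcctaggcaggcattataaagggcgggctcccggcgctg
Ankrd1: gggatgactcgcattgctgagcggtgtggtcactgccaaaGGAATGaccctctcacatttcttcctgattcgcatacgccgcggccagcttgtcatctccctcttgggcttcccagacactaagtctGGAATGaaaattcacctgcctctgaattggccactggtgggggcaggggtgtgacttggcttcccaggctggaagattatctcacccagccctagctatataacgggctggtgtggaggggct
The Cyr61 match starts 103 bases before the start site and lies on the other strand, while the Ankrd1 matches start 210 and 123 bases before it and lie on the gene's own strand. For the other genes with a window, 26 bases around the first match are shown, because the pathway's own components hold the same letters as its targets. They lie at chr9:102717729-102717754 (Amotl2, plus strand), chr14:57746104-57746129 (Lats2, minus strand), chr9:8004722-8004747 (Yap1, minus strand), chr3:57576031-57576056 (Wwtr1, minus strand) and chr14:54577832-54577857 (Ajuba, minus strand).
Amotl2: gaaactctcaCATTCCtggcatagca
Lats2: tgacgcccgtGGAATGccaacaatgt
Yap1: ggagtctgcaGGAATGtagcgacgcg
Wwtr1: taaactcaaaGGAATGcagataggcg
Ajuba: ttgatggataCATTCCacagtgcccc
These matches begin 65 bases (Amotl2), 141 bases (Yap1), 136 bases (Wwtr1) and 186 bases (Ajuba) before the start site and 5 bases into the transcript of Lats2. The start sites used for Amotl2 and Lats2 lie 1132 and 12265 bases inside the gene as the deposited annotation draws it, so for these genes the window may not be the one in use in HT22 cells.

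The libraries held 15026700 to 17368049 reads in genes in OGE, 16259448 to 19476806 in OGP and 17069241 to 18506865 in control. Defining markers of neurons were nearly absent: 8 of 10 neuron markers, among them Rbfox3, Syp and Snap25, stayed under 1 FPKM in every library, and the summed neuron list measured 14.2 to 18.0 FPKM in OGE, 13.1 to 13.8 in OGP and 8.30 to 10.9 in control, most of it Tubb3. Among 10 mesenchymal markers 9 exceeded 1 FPKM in at least 1 library, Col1a1 reached 935 FPKM, and the list summed to 1188 to 1366 FPKM in OGE, 1220 to 1306 in OGP and 1569 to 1928 in control. Col1a1 alone averaged 369 FPKM in OGE, 383 in OGP and 777 in control, and the other markers did not all follow it. Of the 9 tested, 2 were DEGs upward and 3 downward in OGP against control (6.38% and 5.74% of all tested genes). In OGE against control 0 were DEGs upward and 1 downward, Col1a1 (5.14% and 6.33% of all tested genes). Glial and microglial markers were under 1 FPKM in every library for 11 of 12 genes, with sums of 4.16 to 4.79 FPKM in OGE, 5.69 to 7.28 in OGP and 10.3 to 11.9 in control. The part of these shifts in the results on the 9 genes was not tested, and in bulk RNA fewer cells of a type and less RNA per cell cannot be told apart. Control replicate 1 stood apart from the other controls on the third principal component (33.1 against -14.95 and -11.0), as did OGE replicate 3 (-19.4 against 2.01 and 8.77).

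Ctgf, the CCN gene long used as a readout of YAP, was several-fold higher in OGP than in both other groups. It lies at chr10:24595442-24598683 on the plus strand of mm10 (ENSMUSG00000019997). Ctgf measured 13.5, 16.1 and 11.5 FPKM in the OGE libraries, 43.7, 44.8 and 52.8 FPKM in the OGP libraries and 7.47, 9.11 and 7.28 FPKM in the control libraries. No OGP library came near either other group, and OGE lay wholly above control. The means were 13.7 ± 2.31 FPKM in OGE, 47.1 ± 4.96 FPKM in OGP and 7.95 ± 1.01 FPKM in control (SD, n = 3 each, as for every ± below). OGP was 5.92-fold control by the means, and on the log2(FPKM + 0.5) scale the change was 2.50 with an SE of 0.14, the fourth from the top of 13245 genes. OGE against OGP came to -1.75 (SE 0.14), a level 3.44-fold lower, and OGE against control to 0.74 (SE 0.14), a level 1.72-fold higher. Ctgf rested on 373 to 2474 reads per library, and the noncoding Gm15270 drawn across it on the opposite strand counted 0 to 4 reads.

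Cyr61, the most abundant of the 9 genes and a CCN gene that cells switch on within minutes of serum or growth factors, was low in OGE and overlapped in OGP and control. It spans chr3:145646976-145649981 on the minus strand of mm10 (ENSMUSG00000028195). Cyr61 measured 82.8, 79.8 and 72.0 FPKM in the OGE libraries, 400.5, 407 and 421 FPKM in the OGP libraries and 345, 441 and 354 FPKM in the control libraries. Every OGE library was far below all 6 others, and the OGP values fell inside the range of the controls. Mean levels were 78.2 ± 5.59 FPKM in OGE, 409 ± 10.5 FPKM in OGP and 380.1 ± 53.0 FPKM in control. OGE was 5.24-fold lower than OGP (log2 fold change -2.38, SE 0.11, the 19th from the bottom of all tested genes) and 4.86-fold lower than control (-2.27, SE 0.11, the 29th from the bottom). OGP against control came to 0.12 (SE 0.11), within the spread of the controls.

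The pair of CCN genes thus took different courses, and their ratio shows it library by library. Cyr61 per Ctgf was 6.14, 4.95 and 6.27 in OGE, 9.17, 9.07 and 7.98 in OGP and 46.3, 48.4 and 48.6 in control. The 3 groups did not overlap in this ratio, and both OGD groups stood several-fold under control. In OGP the low ratio came with more Ctgf while Cyr61 overlapped control, and in OGE with less Cyr61 and somewhat more Ctgf.

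**Figure D1:**
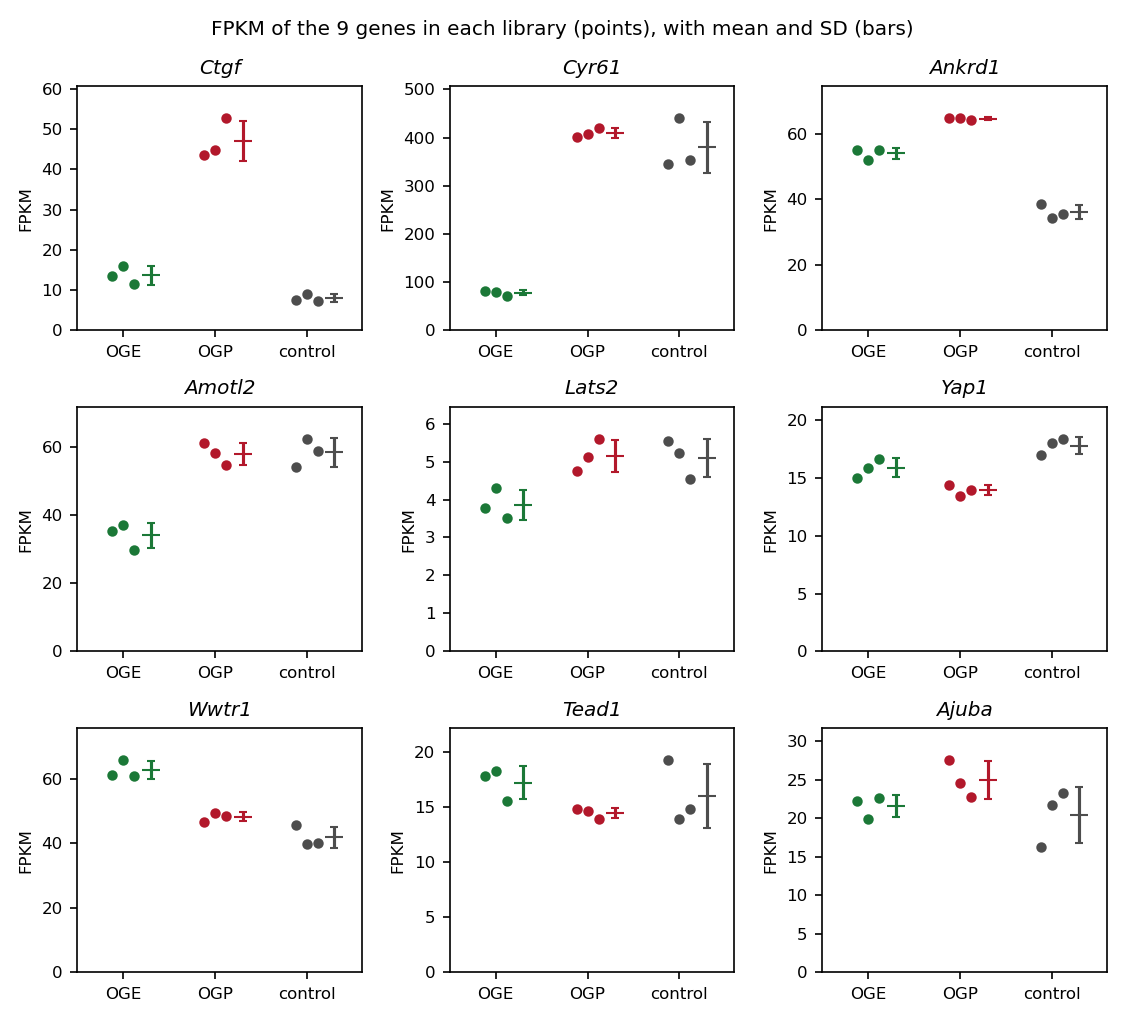
FPKM of the 9 genes in each library, 1 panel per gene with its own axis from 0, for OGE, OGP and control. Points are single libraries and the bar beside them is the mean with SD. Ctgf is highest in OGP (43.7 to 52.8 FPKM), Cyr61 lowest in OGE (72.0 to 82.8 FPKM), and the 3 OGE libraries of Amotl2 lie at 29.9 to 37.1 FPKM under both other groups.

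Ankrd1, an ankyrin repeat protein of the nucleus and the muscle sarcomere whose gene is a further direct target of YAP and TAZ, was higher in both OGD groups. The gene lies at chr19:36111965-36119844 on the minus strand (ENSMUSG00000024803), and the pair of TEAD matches is in the sequence printed above. Ankrd1 measured 55.2, 52.0 and 54.9 FPKM in the OGE libraries, 64.8, 64.8 and 64.2 FPKM in the OGP libraries and 38.6, 34.4 and 35.5 FPKM in the control libraries. The 3 groups did not overlap, with OGP highest and control lowest. OGP was 1.79-fold control (0.83, SE 0.07, on the log2 scale). OGE differed by 0.57 (SE 0.07) from control, just short of the 1.5-fold that the study asks of a DEG, and by -0.26 (SE 0.07) from OGP. Control replicate 1 was the highest control, and without it OGE against control passed the fold.

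Amotl2, Lats2 and Ajuba act upstream of YAP and TAZ. Amotl2 encodes an angiomotin-like protein that holds YAP at cell junctions and is itself a YAP target (chr9:102716672-102733418, plus strand, ENSMUSG00000032531). Amotl2 measured 35.4, 37.1 and 29.9 FPKM in the OGE libraries, 61.3, 58.2 and 54.9 FPKM in the OGP libraries and 54.1, 62.5 and 58.9 FPKM in the control libraries. OGE lay wholly below both other groups, which overlapped each other. OGE was 1.70-fold lower than OGP (-0.77, SE 0.10) and 1.71-fold lower than control (-0.77, SE 0.10), and OGP against control came to -0.01 (SE 0.10).

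Lats2, the kinase that phosphorylates YAP and TAZ and whose gene they induce in turn, had the lowest level of the 9 genes in all 3 groups (chr14:57689662-57758388, minus strand, ENSMUSG00000021959). Lats2 measured 3.77, 4.29 and 3.52 FPKM in the OGE libraries, 4.75, 5.11 and 5.60 FPKM in the OGP libraries and 5.53, 5.23 and 4.54 FPKM in the control libraries. Its order of groups was that of Amotl2, with OGE below every other library and OGP and control overlapping, but the steps were smaller at -0.37 (SE 0.10) against OGP and -0.36 (SE 0.10) against control. Lats2 counted 381 to 673 reads per library, and genes drawn inside it on the opposite strand, the pseudogene Gm20430 and the small nucleolar RNA Gm26440, counted 10 to 20 and 2 to 9 reads.

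Ajuba, a LIM domain protein that binds LATS kinases and holds them back, varied as much among the controls as between groups (chr14:54567472-54577558, minus strand, ENSMUSG00000022178). Ajuba measured 22.3, 19.9 and 22.6 FPKM in the OGE libraries, 27.6, 24.6 and 22.7 FPKM in the OGP libraries and 16.3, 21.7 and 23.2 FPKM in the control libraries. OGP stood just above OGE, with 22.7 FPKM as its lowest and 22.6 FPKM as the highest OGE value, and both overlapped the controls. Its log2 fold changes were 0.30 for OGP against control, -0.20 for OGE against OGP and 0.09 for OGE against control (SE 0.13 each), and the last was -0.06 without control replicate 1, the lowest control.

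Yap1 and Wwtr1, the paired coactivators at the centre of the pathway, differed from control in opposite directions in both OGD groups. Yap1 (chr9:7931999-8004596, minus strand, ENSMUSG00000053110) measured 15.02, 15.9 and 16.7 FPKM in the OGE libraries, 14.4, 13.5 and 14.0 FPKM in the OGP libraries and 17.0, 18.0 and 18.4 FPKM in the control libraries. The groups did not overlap, with OGP lowest and control highest, yet the widest step was -0.34 (SE 0.07), that of OGP against control. OGE came to 0.18 (SE 0.07) against OGP and -0.16 (SE 0.07) against control.

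Wwtr1, which encodes TAZ, was more abundant than Yap1 in every library (chr3:57455649-57575910, minus strand, ENSMUSG00000027803). Wwtr1 measured 61.2, 65.9 and 60.9 FPKM in the OGE libraries, 46.8, 49.5 and 48.4 FPKM in the OGP libraries and 45.7, 39.8 and 40.2 FPKM in the control libraries. OGE lay above OGP and OGP above control, with 46.8 FPKM the lowest OGP value and 45.7 FPKM that of control replicate 1, the highest control. The log2 fold changes were 0.58 (SE 0.08) for OGE against control, 0.37 (SE 0.08) for OGE against OGP and 0.20 (SE 0.08) for OGP against control. The first of these fell just short of 1.5-fold and passed it without control replicate 1.

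The level of Wwtr1 per Yap1 followed from both. It was 4.07, 4.15 and 3.66 in OGE, 3.25, 3.68 and 3.46 in OGP and 2.69, 2.22 and 2.19 in control. OGE and OGP overlapped, and both lay above every control.

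Tead1, the DNA-binding partner of both coactivators, overlapped the controls in both OGD groups (chr7:112679318-112906807, plus strand, ENSMUSG00000055320). Tead1 measured 17.9, 18.3 and 15.6 FPKM in the OGE libraries, 14.8, 14.6 and 13.9 FPKM in the OGP libraries and 19.3, 13.9 and 14.8 FPKM in the control libraries. OGE lay above OGP by 0.24 (SE 0.12) on the log2 scale, and control replicate 1 exceeded all OGE libraries while the other controls lay below them. Its log2 fold change was -0.13 (SE 0.12) for OGP against control and 0.11 (SE 0.12) for OGE against control.

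Counted together, the 9 genes included fold changes in both directions in each comparison. In OGP against control 2 of 9 passed the threshold of a DEG (adjusted p of at most 0.05 and at least 1.5-fold) upward, Ctgf and Ankrd1, and none downward, where 6.38% of all tested genes passed it upward and 5.74% downward. In OGE against OGP 3 of 9 passed it downward, Ctgf, Cyr61 and Amotl2, and none upward, beside 4.73% downward and 3.39% upward of all tested genes. In OGE against control Ctgf passed it upward and Cyr61 and Amotl2 downward, beside 5.14% and 6.33% of all tested genes. The values that chose the genes are those counted here, so nothing is read from these shares. Groups did not overlap for 4 of the 9 genes in OGP against control (42.9% of all tested genes), for all 9 in OGE against OGP (45.4%) and for 7 in OGE against control (38.2%). The median log2 fold change of the 9 genes was 0.12, -0.26 and 0.09 in these 3 comparisons, and that of all tested genes within 0.01 of 0. The comparisons share libraries with each other, so they are not independent.

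**Figure D2:**
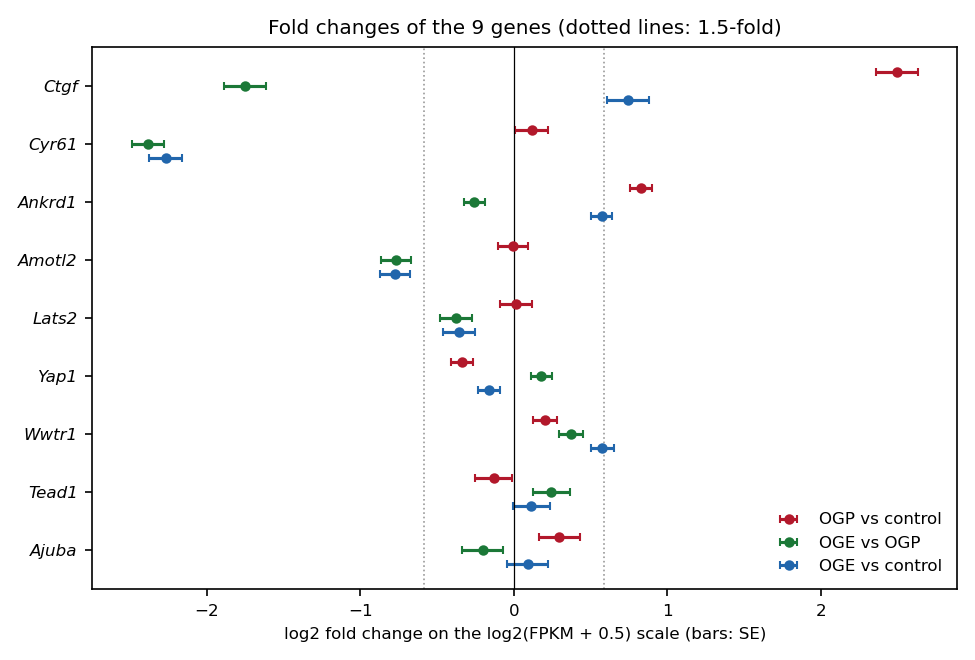
Log2 fold changes of the 9 genes on the log2(FPKM + 0.5) scale, with bars of 1 SE, for OGP against control (red), OGE against OGP (green) and OGE against control (blue), and dotted lines at 1.5-fold. Ctgf lies at 2.50 in OGP against control and at -1.75 in OGE against OGP, Cyr61 at -2.38 and -2.27 in the comparisons with OGE, and Yap1, Tead1 and Ajuba stay inside the dotted lines in each comparison.

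In level per length, Cyr61 led in each group, and the gene that ranked next was Wwtr1 in OGE (62.7 ± 2.80 FPKM), Ankrd1 in OGP (64.6 ± 0.346 FPKM) and Amotl2 in control (58.5 ± 4.19 FPKM). Ctgf ranked next to Wwtr1 in OGP, with overlapping values, next to Yap1 in OGE, again with overlapping values, and next to Lats2 in control, above every Lats2 value. Yap1 and Tead1 were neighbours whose values overlapped in all 3 groups. The share of all gene reads that fell on the 9 genes was 0.132% ± 0.00492 in OGE, 0.214% ± 0.00179 in OGP and 0.192% ± 0.00901 in control. The root mean square difference of centred log2 levels over the 9 libraries was smallest for Yap1 with Tead1 (0.203), Wwtr1 with Tead1 (0.212) and Amotl2 with Lats2 (0.232). This measure is not scaled to the spread of each gene. Genes that varied little therefore lie close whatever their courses, and no likeness of pattern is read from these pairs. Ctgf lay 1.30 from Cyr61 and 0.771 from Ankrd1, and Cyr61 lay 0.741 from Amotl2.

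The other CCN genes were Wisp1, Wisp2, Nov and Wisp3, and the first pair was expressed. Wisp1, a secreted CCN protein first described as a WNT target, measured 60.1, 65.6 and 51.8 FPKM in the OGE libraries, 34.3, 32.8 and 32.0 FPKM in the OGP libraries and 41.5, 32.0 and 32.6 FPKM in the control libraries. It was higher in OGE than in OGP (log2 fold change 0.83, SE 0.12, limma adjusted p = 0.00163) and than in control (0.74, SE 0.12, adjusted p = 0.00216). Every OGE library lay above all OGP and control libraries, which overlapped each other. Wisp2, a CCN protein without the C-terminal domain of the others, measured 51.2, 60.1 and 40.0 FPKM in the OGE libraries, 95.4, 114 and 104 FPKM in the OGP libraries and 128, 163 and 155 FPKM in the control libraries. Wisp2 thus moved the other way from Wisp1: it was lower in OGE than in OGP (-1.05, SE 0.15, limma adjusted p = 0.00163) and than in control (-1.56, SE 0.15, adjusted p = 0.000117). OGP against control missed the fold for Wisp2 (-0.51, SE 0.15, adjusted p = 0.0332) and was -0.09 (SE 0.12, adjusted p = 0.608) for Wisp1. Nov (0.0704 to 0.394 FPKM) and Wisp3 (0.125 to 0.711 FPKM) were under the level tested.

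Summed over the 6 CCN genes, the level was 202 ± 23.9 FPKM in OGE, 594 ± 18.2 FPKM in OGP and 573 ± 64.5 FPKM in control. Cyr61 made up 38.9% ± 2.63 of that sum in OGE, 68.9% in OGP and 66.2% in control, and Ctgf 6.76% in OGE, 7.92% in OGP and 1.39% in control. Wisp1 took 29.3% of the sum in OGE, 5.56% in OGP and 6.28% in control. The CCN sum of OGE cells was thus the smallest and the one in which Cyr61 took the least share.

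**Figure D3:**
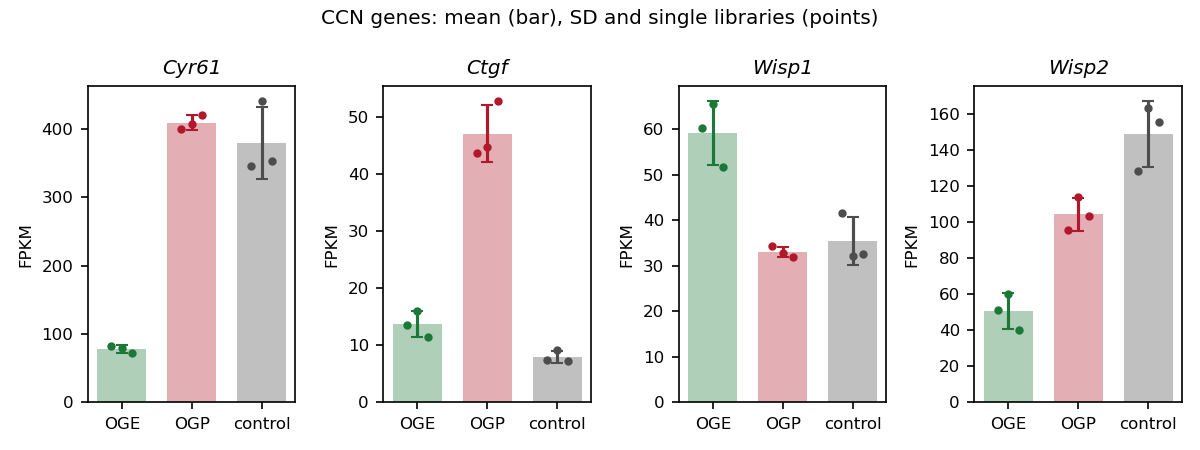
Level in FPKM of the 4 CCN genes that were expressed, in OGE, OGP and control. Bars are means with SD, points are single libraries and each panel has its own axis from 0. Cyr61 and Wisp2 are lowest in OGE (72.0 to 82.8 and 40.0 to 60.1 FPKM), Wisp1 is highest in OGE (51.8 to 65.6 FPKM) and Ctgf is highest in OGP (43.7 to 52.8 FPKM).

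Of the proteins that bind CCN ligands, integrins and their partners, 7 of 8 listed genes were tested. Their median log2 fold change was 0.04 in OGP against control, 0.10 in OGE against OGP and 0.09 in OGE against control. The gene under the level tested was Itgb3, at 0.609 ± 0.105 FPKM in OGE, 0.167 ± 0.0987 FPKM in OGP and 0.0541 ± 0.0301 FPKM in control. Sdc4, a cell surface heparan sulfate proteoglycan that works with integrins, was lower in OGP at 52.9 ± 1.68 FPKM, against 95.1 ± 9.79 FPKM in control (-0.84, SE 0.09, limma adjusted p = 0.000282). Its OGE level lay between them at 76.9 ± 5.28 FPKM, above OGP but short of the fold (0.53, SE 0.09, limma adjusted p = 0.00404). Lrp1, an endocytic receptor that binds CTGF, measured 39.3 ± 4.32 FPKM in OGE and 25.7 ± 6.96 FPKM in OGP (0.63, SE 0.17, limma adjusted p = 0.0307), a call that was lost without any single OGE library, without OGP replicate 2 or 3 and without a filter on low values (adjusted p = 0.0562 to 0.117 over these and the fit without control replicate 1 and OGE replicate 3). In OGE against control limma called none of the 7, with 2 at an unadjusted p under 0.05, and voom called 1. These 2 missed only the fold: Itgb5 (0.56, limma adjusted p = 0.00811) and Sdc4 (-0.30, limma adjusted p = 0.0404). Of all tested genes, limma called 12.1% in OGP against control, 8.12% in OGE against OGP and 11.5% in OGE against control. Beside these shares nothing is read from the small counts in this list. The same holds for the lists of kinases, scaffolds and TEAD and VGLL genes.

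The 15 other genes of the Hippo kinase chain (among them Stk3, Stk4, Sav1, Lats1, Nf2 and the TAO kinases) were all tested and mostly stayed within 1.5-fold. Map4k4, a kinase that can act on LATS beside the MST kinases, was the only one past the threshold with all libraries, and in OGP against control 2 of the 15 were past it without control replicate 1. Map4k4 was lower in OGP at 20.5 ± 2.14 FPKM, against 34.3 ± 3.38 FPKM in control (-0.73, SE 0.10, limma adjusted p = 0.00102), and higher in OGE at 33.6 ± 2.31 FPKM than in OGP (0.70, SE 0.10, limma adjusted p = 0.0017). In OGE against control limma called none of the 15, with 4 at an unadjusted p under 0.05, and voom on recovered reads called none either. Of these 4, Lats1 (0.41, limma adjusted p = 0.0465) and Taok3 (-0.31, limma adjusted p = 0.0276) missed only the fold. The list's median log2 fold change was -0.13 in OGP against control, 0.17 in OGE against OGP and 0.02 in OGE against control.

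Among the 4 scaffolds that bind YAP or LATS, relatives of Amotl2 and Ajuba, Amot was lower in OGE than in OGP. It measured 6.53 ± 0.590 FPKM in OGE and 11.2 ± 0.560 FPKM in OGP (-0.74, SE 0.10, limma adjusted p = 0.000903). In control Amot was at 7.75 ± 0.822 FPKM, and OGP was higher but short of the fold (0.51, SE 0.10, limma adjusted p = 0.0045). Amotl2 took another course, low in OGE and overlapping in OGP and control. In both comparisons with control limma called none of these 4, with 1 at an unadjusted p under 0.05 in each, and voom called none. Of 7 other TEAD and VGLL genes, 5 were tested, and Vgll1 and Vgll2 were at 0 in all libraries. In OGE against OGP limma called none of the 5, with 2 at an unadjusted p under 0.05, and voom called none. Of these 2, Tead2 missed only the fold (0.38, SE 0.09, limma adjusted p = 0.0158). Vgll4, which competes with YAP for TEAD, measured 9.27, 9.23 and 10.0 FPKM in the OGE libraries, 10.4, 10.4 and 8.03 FPKM in the OGP libraries and 15.8, 18.3 and 20.6 FPKM in the control libraries. It was lower in both OGD groups without overlap, by -0.90 (SE 0.12, limma adjusted p = 0.00085) in OGE against control and by -0.89 (SE 0.12, limma adjusted p = 0.000948) in OGP against control. Tead3 was lower in OGP at 2.64 ± 0.427 FPKM, against 4.44 ± 0.765 FPKM in control (-0.65, SE 0.15, limma adjusted p = 0.0122), and this change slipped under 1.5-fold without control replicate 2 (-0.55), without OGP replicate 3 (-0.55) and with a pseudocount of 1 (-0.58).

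A list of 17 further genes known as YAP or TAZ targets, of which 16 were tested, took no common direction. In OGP against control 2 of 16 were higher and 5 lower, in OGE against OGP 2 were higher and 3 lower, and in OGE against control 3 were higher and 4 lower, with median log2 fold changes of -0.0018, -0.08 and -0.21. The shares past the threshold in either direction were 43.8%, 31.2% and 43.8%, beside 12.1%, 8.12% and 11.5% of all tested genes, but the list was drawn up with results of these data known, and nothing particular to it is read from them. Crim1, a membrane protein that binds BMPs, was, like Ctgf, highest in OGP: it was higher in OGP at 19.5 ± 1.40 FPKM, against 11.1 ± 0.627 FPKM in control (0.79, SE 0.08, limma adjusted p = 0.00018), and lower in OGE at 10.1 ± 0.446 FPKM than in OGP (-0.92, SE 0.08, limma adjusted p = 7.38e-05). Gadd45a, a growth arrest gene of the stress response, was higher in both OGD groups, at 55.8 ± 2.16 FPKM in OGE and 39.5 ± 1.88 FPKM in OGP, against 23.3 ± 3.73 FPKM in control (1.25 and 0.76, SE 0.11 each, limma adjusted p = 6.94e-05 and 0.00129).

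The rest of the targets named took other courses. F3, which encodes tissue factor, the starter of blood clotting, measured 12.2 ± 0.309 FPKM in OGE, 24.7 ± 0.179 FPKM in OGP and 36.6 ± 0.907 FPKM in control, and OGE was lower than OGP (-0.99, SE 0.06, limma adjusted p = 1.16e-05) and than control (-1.55, SE 0.06, limma adjusted p = 1.61e-06). Ccdc80, a secreted matrix protein, was lower in both OGD groups at 46.8 ± 4.34 FPKM in OGE and 60.8 ± 0.729 FPKM in OGP, against 108 ± 2.20 FPKM in control (-1.20 and -0.83, SE 0.08 each, limma adjusted p = 1.08e-05 and 0.000135). Foxf2, a forkhead transcription factor, was lower in OGP at 4.38 ± 0.432 FPKM, against 11.1 ± 0.589 FPKM in control (-1.25, SE 0.09, limma adjusted p = 2.98e-05), and higher in OGE at 7.63 ± 0.310 FPKM than in OGP (0.74, SE 0.09, limma adjusted p = 0.000449). Nt5e, the surface enzyme CD73 that makes adenosine from AMP, was highest in OGE at 4.57 ± 0.431 FPKM. It measured 1.66 ± 0.0761 FPKM in OGP (OGE against OGP 1.23, SE 0.10, limma adjusted p = 5.3e-05). In control it was at 1.29 ± 0.0974 FPKM (OGE against control 1.5, SE 0.10, limma adjusted p = 1.2e-05). OGP against control came to 0.27 (SE 0.10, limma adjusted p = 0.067), short of the threshold. Genes of the list thus went in either direction in each comparison.

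**Figure D4:**
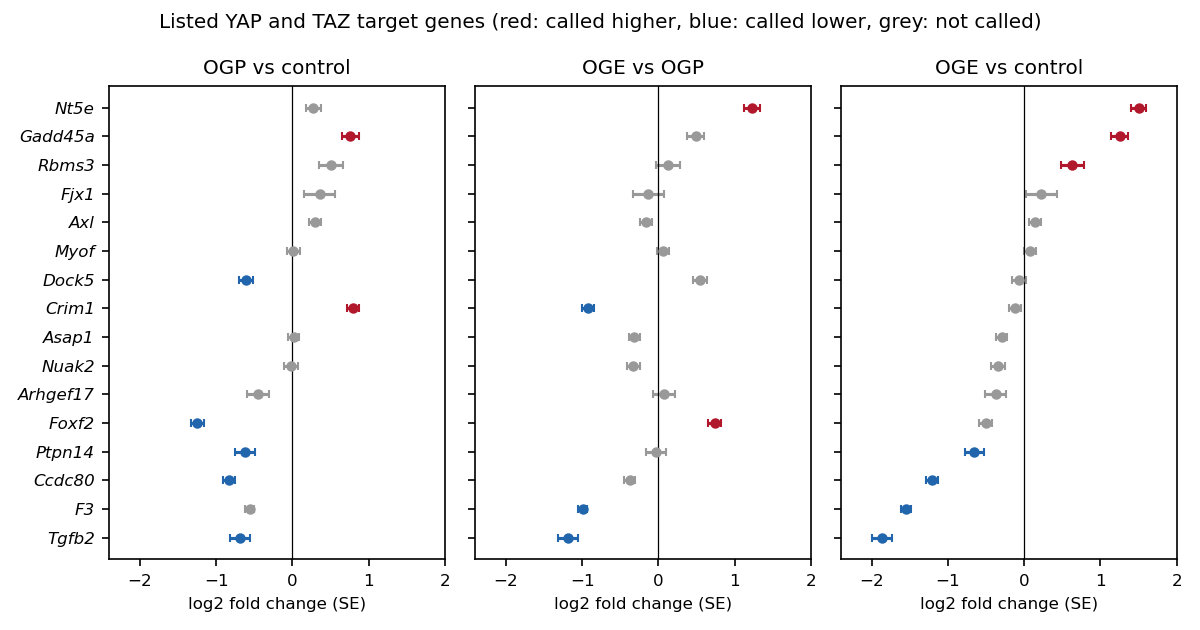
Log2 fold changes with SE of the 16 tested genes of the YAP and TAZ target list, 1 panel per comparison, ordered by the change in OGE against control. Red points are DEGs that were higher, blue points DEGs that were lower and grey points the rest. Nt5e (1.5) and Gadd45a (1.25) stand at the top and F3 (-1.55) near the bottom in OGE against control, and Crim1 is red in OGP against control and blue in OGE against OGP.

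Genes with the pattern most like each CCN gene were taken from tested genes of at least 1 FPKM, with predicted loci (such as Gm and Rik names) left out. Nearest to Ctgf were Acox2, a peroxisomal oxidase of bile acid synthesis (root mean square log2 difference 0.194), Msln, the surface protein mesothelin (0.359), Nedd9, a scaffold of focal adhesions (0.406), Mgst3, a microsomal glutathione transferase (0.434), and Cmbl, a cytosolic hydrolase (0.444), where Ctgf itself spread by 1.06 about its own mean. Acox2 measured 1.33 ± 0.146 FPKM in OGE, 5.21 ± 0.374 FPKM in OGP and 0.651 ± 0.0970 FPKM in control. Nearest to Cyr61, which spread by 1.10, were Cmpk2, a mitochondrial nucleotide kinase (0.139), Egr1 (0.146), Ier2 (0.209), Zfp36 (0.25) and Egr2 (0.252). Egr1, Ier2, Zfp36 and Egr2 are immediate-early genes, transcribed within minutes of a stimulus, and Egr1 measured 8.95 ± 0.849 FPKM in OGE, 56.4 ± 0.858 FPKM in OGP and 57.6 ± 8.42 FPKM in control. No gene of the YAP and TAZ target list was among the 5 nearest to either CCN gene. Only 16 of the 13245 tested genes are on that list, so such an absence is likely whatever the cause. Nothing is read from it.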

How the data were processed

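RNA of 9 HT22 libraries was measured by poly-A RNA-seq. The authors sequenced paired ends, used HISAT2 2.0.5 for alignment to mm10 and featureCounts for the reads of each gene. The deposited FPKM were computed by the authors with a tool not given in the sources used here, and strand was not stated to be kept. Multiplied by gene length, the FPKM of 100% of genes in each library were whole multiples of 1 step (tolerance 0.1), from which the reads per gene were recovered.

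A gene was tested if its FPKM averaged at least 0.5 across all libraries (13245 genes). The test was limma 3.58.1 (R 4.3.3), trended variance, on log2(FPKM + 0.5), a scale that understates changes of low genes, in 1 model of 3 groups with all 9 libraries. Benjamini-Hochberg adjustment ran over every tested gene, and DEGs needed an adjusted p ≤ 0.05 together with a fold ≥ 1.5, as in the study. The study calls its replicates biological without saying how they were separated, so p-values cover only how these libraries spread, which may be technical. The 9 genes, the lists and the tests were chosen with earlier results of these data known. Named are the 9 genes, the other CCN genes and up to 2 DEGs of smallest p per list, comparison and direction. The 5 genes nearest in pattern to Ctgf and to Cyr61, predicted loci left out, are named too. Promoters came from RefSeq GRCm38.p6, and proteins were not used here. Alternatives were other pseudocounts, filters, folds and scalings, robust variances, the 6 libraries compared alone, a replicate block, voom on recovered reads and each library left out. Leaving out control replicate 1 and OGE replicate 3 together was added after seeing the data.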

Additional observations from a re-analysis of the deposited data

How the results depend on the processing

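Main counts of DEGs were 1605 in OGP against control, 1075 in OGE against OGP and 1519 in OGE against control. With no fold threshold they were 3941, 2750 and 3287, and with a fold of at least 2 they were 436, 393 and 530. Without 1 replicate they ranged over 1345 to 1915, 890 to 1183 and 1341 to 2021. The replicate numbers did not pair the libraries: same-numbered libraries correlated at -0.177 to 0.319, 2 of 9 pairs over 0.1, and 4 of 18 comparisons were best with the own number. With a replicate block the counts were 1581, 1043 and 1484, and of the genes named only Lrp1 lost its call (adjusted p = 0.064). With a pseudocount of 1, Tead3 in OGP against control fell short of the fold (-0.58, adjusted p = 0.0121). Listed YAP and TAZ targets past the threshold (7, 5 and 7) numbered 11 and 10 in the first 2 comparisons with no fold threshold and 1 and 2 with a fold of at least 2. Hippo kinase genes (1, 1 and 0) numbered 5, 3 and 2 with no fold threshold, 0 and 0 in the first 2 comparisons with a fold of at least 2, 1 to 2 without 1 replicate in OGP against control, and, without both control replicate 1 and OGE replicate 3, 2 in OGP against control and 1 for OGE against control. Of the 9 genes (2, 3 and 3 past the threshold), a fold of at least 2 left 1 each in the first and the third comparison, and no fold threshold gave 6 in OGE against OGP and 6 in OGE against control. Quantile normalization, voom and leaving out both control replicate 1 and OGE replicate 3 each gave 5 in OGE against control, and leaving out 1 replicate gave 3 to 5, with 5 without control replicate 1. Ankrd1 and Wwtr1, both near 1.5-fold there, were the genes added. Of 594 fold changes of the 9 genes under alternatives, 583 kept their sign, and the rest were Amotl2, Cyr61, Lats2 and Tead1 in OGP against control and Ajuba in OGE against control, all with overlapping groups. The cause of these moves was not tested. Nov, Wisp3, the gene Itgb3 of the receptor list and the gene Igfbp3 of the target list were too low to test.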
